A study of Mus musculus with 13 samples.

Results

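The regions described here are the promoter sites in mouse embryonic stem cells (mESCs) at which AEBP2 peaks coincided with the histone mark H3K27me3. A region entered the set when AEBP2 peaks of both replicates overlapped and were joined, when it lay within 1 kb of the start of a protein-coding gene, and when it overlapped, by at least 1 bp, an H3K27me3 region joined from both replicates in the same way. These criteria gave 1241 of the 2410 AEBP2 regions shared by both replicates (51.5%), and the 1241 regions lay within 1 kb of 1347 of 22367 protein-coding gene starts. The peak positions, the mark and nearness to a gene start chose the regions, so those values are given as a description. The tagged AEBP2 library and DNA sequence did not enter the choice.

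Chromatin immunoprecipitation followed by sequencing (ChIP-seq) was used to map AEBP2 and PRC2 activity along the genome. All libraries used here were labelled wild-type, strain 129/1, from a 129/1 XY ES cell line grown with LIF on gelatine: 2 with an antibody raised by the study against endogenous AEBP2, 2 with a commercial antibody whose label says anti-H3K27 and which the study's text names as H3K27me3, and 1 with an antibody against the FS2 tag. FS2-AEBP2 is AEBP2 with an N-terminal Flag-StrepII tag. The study's methods describe its expression from a CAG-promoter plasmid in E14 mESCs, a different line from the label, and a different ChIP protocol. The 5 peak lists held 2877 and 6779 AEBP2 peaks (replicates 1 and 2), 14112 and 9275 H3K27me3 peaks and 2884 FS2-AEBP2 peaks, the FS2-AEBP2 list having no replicate. Replicate numbers follow the sample titles, and the names of the H3K27me3 lists appear to carry the opposite numbers, so replicates 1 and 2 of H3K27me3 may be exchanged throughout. Names of the endogenous AEBP2 and H3K27me3 lists also carry a figure in M that may be a read number, but no source used here gives its meaning, so read depth was taken as unknown. No source used here says whether replicates were separate cultures.

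Polycomb repressive complex 2 (PRC2) places methyl groups on lysine 27 of histone H3, a mark of silent developmental genes in mESCs. AEBP2 is a zinc finger cofactor of the form of the complex that also holds JARID2, and binds its core subunits. In vertebrates, PRC2 is found mostly at CpG islands, stretches of DNA rich in unmethylated CG dinucleotides that overlie many gene promoters and, when marked by PRC2, many promoters of transcription factors that direct differentiation.

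The promoter sequences below show the range of DNA found at these regions, in the mm9 build, each from 250 bases before the annotated gene start to 50 bases from it on, 5′ to 3′ along the gene, with every CG in capitals. Among the regions of the set, Dph1 had the highest AEBP2 score in both lists and no FS2-AEBP2 peak. Hoxa2 held the middle rank by the lower of its score ranks in the AEBP2 lists. Neurog2, which encodes a transcription factor of neurons, was added after its values were seen as a member with a long AEBP2 region. Snrpb2, which encodes a spliceosome protein, is shown for contrast. By the same lower rank it was first among AEBP2 promoter regions without H3K27me3, although others scored higher in either list alone.
Dph1 (chr11:75004694-75004993, minus strand): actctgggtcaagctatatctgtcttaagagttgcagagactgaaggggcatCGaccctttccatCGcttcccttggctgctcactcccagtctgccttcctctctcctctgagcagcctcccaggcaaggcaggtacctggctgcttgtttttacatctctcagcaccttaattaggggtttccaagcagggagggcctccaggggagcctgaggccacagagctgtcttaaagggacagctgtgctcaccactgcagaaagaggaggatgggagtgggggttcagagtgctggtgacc
Neurog2 (chr3:127335804-127336103, plus strand): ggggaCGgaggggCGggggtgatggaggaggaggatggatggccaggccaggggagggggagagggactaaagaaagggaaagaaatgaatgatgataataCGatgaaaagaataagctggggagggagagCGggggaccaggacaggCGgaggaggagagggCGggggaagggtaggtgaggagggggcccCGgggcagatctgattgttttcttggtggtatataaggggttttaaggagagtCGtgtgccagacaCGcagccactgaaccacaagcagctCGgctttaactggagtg
Hoxa2 (chr6:52115363-52115662, minus strand): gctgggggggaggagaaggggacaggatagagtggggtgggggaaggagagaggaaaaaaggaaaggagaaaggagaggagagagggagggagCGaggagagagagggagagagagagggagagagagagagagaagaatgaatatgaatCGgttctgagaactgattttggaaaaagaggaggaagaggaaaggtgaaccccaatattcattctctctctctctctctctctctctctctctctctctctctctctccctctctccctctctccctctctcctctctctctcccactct
Snrpb2 (chr2:142888525-142888824, plus strand): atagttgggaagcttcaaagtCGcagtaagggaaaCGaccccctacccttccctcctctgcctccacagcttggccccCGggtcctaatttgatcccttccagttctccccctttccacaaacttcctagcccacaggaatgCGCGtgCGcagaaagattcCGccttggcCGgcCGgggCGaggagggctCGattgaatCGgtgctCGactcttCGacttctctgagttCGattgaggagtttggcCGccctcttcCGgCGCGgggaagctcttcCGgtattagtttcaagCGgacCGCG

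The 300 bases held 2 CGs at Dph1, 10 at Neurog2, 2 at Hoxa2 and 23 at Snrpb2. The Hoxa2 window is largely a run of AG and CT repeats, and the CpG-rich DNA of that region lay elsewhere within its 6127 bp. Of these 4 windows, only that of Snrpb2 held CCGGAAG, a core word bound by ETS factors, and the palindromic core word bound by NRF1, as searched on both strands.

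AEBP2 formed broad peaks at these promoters, nested within still broader H3K27me3. The joined AEBP2 regions ran from 197 to 87283 bp, with a median of 3001 bp and quartiles of 1957 and 4833 bp, and they held 71.4% of the base pairs of all AEBP2 regions. The H3K27me3 region around them had a median of 9132 bp. The single AEBP2 region covered a median of 33.1% of it (quartiles 22.8% and 47.4%). Of the 1241 regions, 1095 (88.2%) lay wholly inside the mark, although only 1 bp was required. Most H3K27me3 regions had no such site: 1229 of 5801 overlapped a member, and these held 37.4% of the base pairs under the mark.

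The same difference in breadth was seen in each library. The median AEBP2 peak at the members was 1995 bp in replicate 1 and 2834 bp in replicate 2, compared with 618 and 684 bp for the other peaks of those lists. The median FS2-AEBP2 peak was 1650 bp there and 524 bp elsewhere. H3K27me3 peaks had medians of 7970 and 6783 bp at the members, and 1843 and 1906 bp elsewhere. Peaks at the members were thus longer than the other peaks of the same list as a whole. The choice of regions favours long peaks, since these more easily overlap other lists and reach a gene start. The other peaks also include those called in 1 replicate only. Breadth was not particular to promoters, since peaks at distal AEBP2 regions with H3K27me3 had medians of 1569 and 2416 bp for AEBP2, 1446 bp for FS2-AEBP2, and 8653 and 6977 bp for H3K27me3, with both H3K27me3 medians above those at the members. At AEBP2 promoter regions without H3K27me3, the AEBP2 peaks were short, with medians of 439 and 654 bp. Their scores were no lower: the median percentile of the AEBP2 score, defined as the share of peaks in the same list with a lower score, was 54.7 and 79.1 at the members, and 54.7 and 80.7 at promoters without the mark. These classes thus differed in breadth while their scores were alike. Each deposited peak also lists narrower sub-peaks, and 56.0% and 71.3% of the members' AEBP2 peaks contained at least 2, against 3.28% and 8.95% at promoters without H3K27me3.

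**Figure D1:**
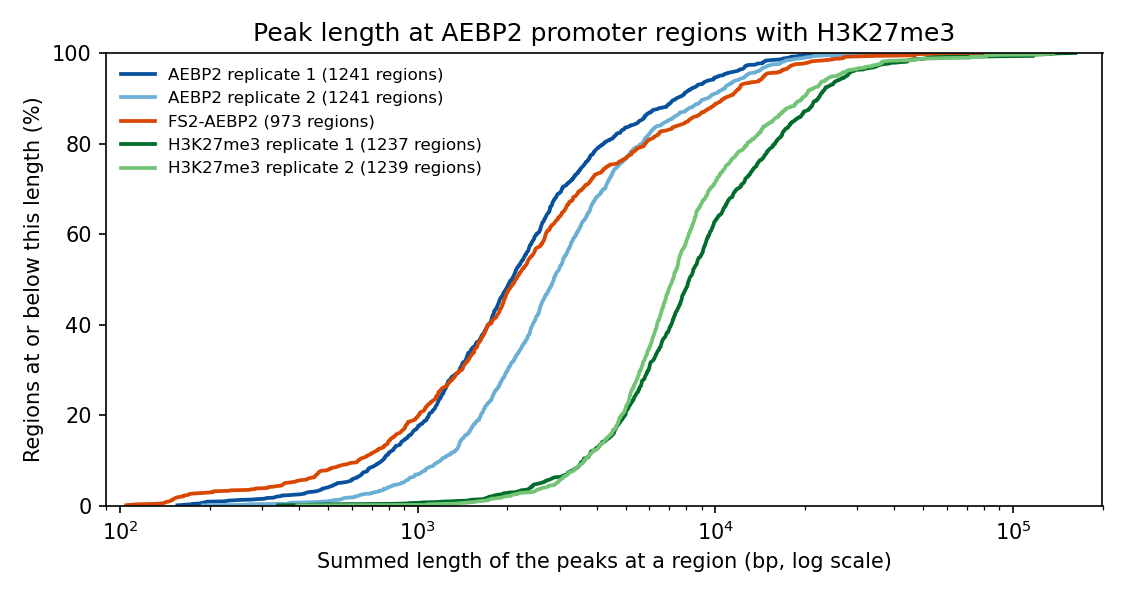
Cumulative share of regions (vertical axis, %) by the summed length of their peaks in each list (horizontal axis, bp, log scale), for AEBP2 promoter regions with H3K27me3 that held a peak of that list. The AEBP2 and FS2-AEBP2 curves rise between about 1 and 10 kb. Both H3K27me3 curves lie to their right, with median summed lengths of 8178 and 7212 bp in replicates 1 and 2.

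Replicates ranked the members alike in length. Over the 1241 regions, the Spearman correlation of peak length was 0.84 between the AEBP2 replicates, and a median of 69.3% of the base pairs covered by either was covered by both. FS2-AEBP2 peaks, where present (973 regions), shared a median of 63.3% and 61.4% of base pairs with AEBP2 replicates 1 and 2, with correlations of length of 0.81 and 0.80. The H3K27me3 replicates shared a median of 75.3%. Scores were less alike, with a Spearman correlation of 0.64 between the AEBP2 replicates and 0.46 between the H3K27me3 replicates. Overlap of these AEBP2 and H3K27me3 lists chose the regions, so their agreement here is a description only. These regions are not independent, since 54 of them shared an H3K27me3 region with another member. Replicate 2 peaks were the longer at most members, and replicate 1 peaks exceeded them at 210 (16.9%). In 4 members no peak of H3K27me3 replicate 1, and in 2 no peak of replicate 2, reached the AEBP2 region itself.

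The regions with the highest AEBP2 scores lay mostly at developmental regulators. The rank used was the lower of the percentiles of both AEBP2 lists. The Hoxb9 to Hoxb2 region (chr11:96129329-96216611) spanned 87283 bp and held 8 gene starts of the HoxB cluster, whose transcription factors pattern the body axis. Its highest AEBP2 scores were at percentiles 98.3 and 97.6 of replicates 1 and 2, H3K27me3 was at 99.7 and 99.2, and FS2-AEBP2 was at 99.5. All 5 libraries therefore placed this cluster in their top few percent. Foxc2 (chr8:123637302-123655180), a regulator of mesoderm, had AEBP2 at percentiles 97.4 and 99.0, H3K27me3 at 99.1 and 98.9, and FS2-AEBP2 at 97.6. Six3 (chr17:86006883-86028477), a regulator of forebrain and eye, had AEBP2 at 97.6 and 97.3, H3K27me3 at 96.0 and 97.1, and FS2-AEBP2 at 99.8. Regions at Irx5, Six2, Cbln1, Foxa2, the HoxC cluster and Hmx1 completed the highest 10, with Prox1 and Nkx1-1 tied at percentile 96.2 with the last 2 of them, and 9 of these 10 held an FS2-AEBP2 peak.

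Dph1, which encodes an enzyme of diphthamide synthesis on elongation factor 2, was the exception among the 10. Its AEBP2 region (chr11:75003701-75004857) was 1157 bp long and had scores of 99 and 112 in replicates 1 and 2, at percentile 99.7 of each list. It had no FS2-AEBP2 peak and no peak of H3K27me3 replicate 1 within it. Replicate 2 of H3K27me3 covered it with a 6189 bp peak at percentile 71.6. The strongest AEBP2 score of the set thus came with a short region, at a site that the H3K27me3 replicates did not share.

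The longest regions were the HoxB region, the HoxC region of 78285 bp with 6 gene starts, the HoxD region of 37821 bp, Hand2 (33534 bp), a regulator of heart and limb, and Pax2 (30647 bp), a regulator of kidney. Hand2 had 4 separate peaks in AEBP2 replicate 1, 1 peak of 33534 bp in replicate 2 and 5 FS2-AEBP2 peaks that summed to 27035 bp. Pax2 had 3 peaks in replicate 1, 1 in replicate 2 and 3 in FS2-AEBP2. The number of peaks at a long region thus depended on the library, while the covered length was of the same order.

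The share of the H3K27me3 region taken by the AEBP2 region at the promoter differed widely among promoters with 1 gene start. It leaves out any other AEBP2 region in the same mark. AEBP2 covered the whole mark at Dnajc22, which encodes a J-domain protein (AEBP2 region 6651 bp, H3K27me3 4825 bp), and at Cdk5r2, which encodes an activator of the kinase CDK5 (4111 and 3226 bp). Mxi1, Ppp1r9b and Man1c1 also reached 100%. In contrast, AEBP2 covered 2.74% of the mark at Cdkn1c, an imprinted inhibitor of the cell cycle, where a 4447 bp AEBP2 region sat in 162445 bp of H3K27me3, the longest stretch at any member. There, H3K27me3 replicate 1 called a peak of 162098 bp and replicate 2 a peak of 48935 bp. Hoxa4 and Hoxb1, inside Hox clusters, had 2.74% and 2.99%. Other AEBP2 regions lay in the same marks. The Hoxb9 to Hoxb2 region covered 64.6% of the 135110 bp of H3K27me3 at Hoxb1. The Hoxa2 region covered a further 5.15% of the 118921 bp at Hoxa4. The smallest share, 1.04%, was at Cachd1, where the overlap was 23 bp. At Cdkn2a, a tumour suppressor locus silenced by PRC2 in many cell types, a 3147 bp AEBP2 region covered 7.41% of 42477 bp.

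AEBP2 lay across the gene start and reached further into the gene than upstream of it. Regions were chosen within 1 kb of a gene start, so nearness to it was set in advance and is a description only. Of the 1241 regions, 1112 (89.6%) contained a gene start. The 1147 regions with 1 gene start were aligned on it, taken as the outermost annotated start of that gene. A peak at a later transcript start of the same gene thus counted as downstream. The part of such later starts in the asymmetry was not tested. The start was inside an AEBP2 peak at 71.4% and 87.2% of them in replicates 1 and 2, and inside an H3K27me3 peak at 91.3% and 87.1%. Coverage was highest 400 bp downstream for both AEBP2 replicates, and reached 85.4% in replicate 1. At 1000 bp upstream AEBP2 covered 27.8% and 44.1% of the promoters, and at 1000 bp downstream 73.1% and 84.1%. Where a peak spanned the start, its downstream arm was the longer in 79.4% and 78.2% of cases, with medians of 690 and 974 bp upstream and 1613 and 1988 bp downstream.

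FS2-AEBP2 showed the same asymmetry, with lower coverage of the start itself. Its coverage was 42.7% at the start and peaked at 62.2% at 600 bp downstream. Among the 898 regions with 1 start and an FS2-AEBP2 peak, 54.5% had the start inside that peak, compared with 75.6% and 89.9% inside the AEBP2 peaks of replicates 1 and 2. H3K27me3 peaked further in, at 900 and 1500 bp, and replicate 2 had a shallow dip at the start, where coverage was 87.1%, against 88.7% at 700 bp upstream and 98.3% at its highest point. CpG-rich DNA had the same skew. Its coverage was highest, at 88.7%, 200 bp downstream, and the downstream arm of the CpG-rich stretch was the longer in 83.0% of cases. The relation of island and peak position within each region was not tested.

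**Figure D2:**
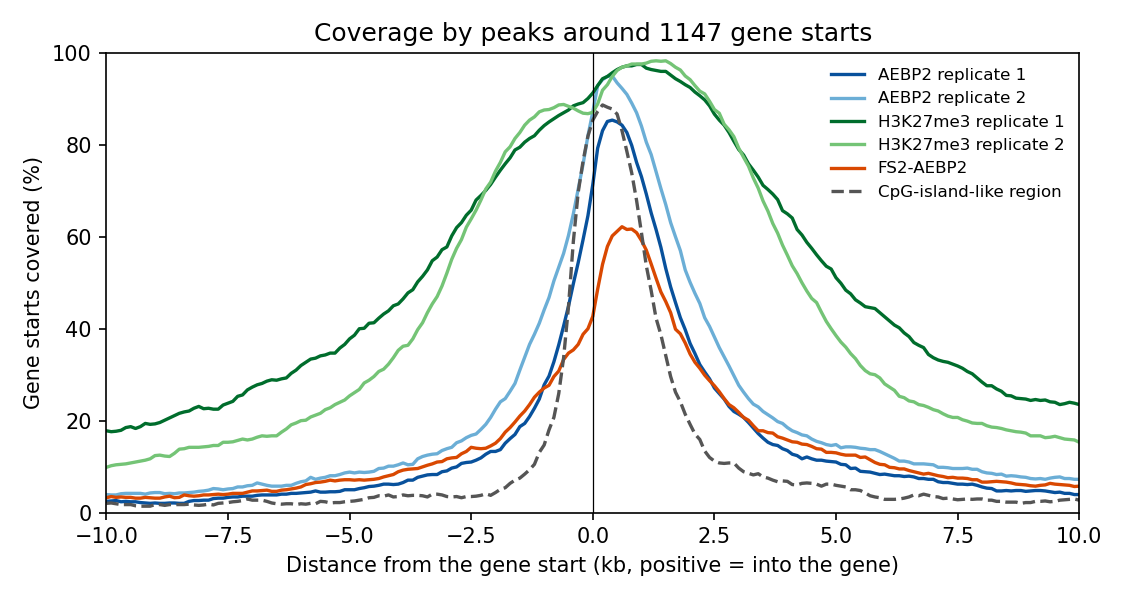
Share of 1147 gene starts (vertical axis, %) covered by peaks of each list, or by a CpG-island-like region (dashed), at each distance from the start (horizontal axis, kb, positive values inside the gene). All curves lean to the right of the start, taken as the outermost annotated start of each gene. FS2-AEBP2 rises from 42.7% at the start to 62.2% at 0.6 kb.

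Nearly all of the regions held a CpG island. CpG-island-like DNA was defined from sequence alone, as joined 500 bp windows in which G and C made up at least 55% of bases and CpG occurred at no less than 0.65 of the frequency that base composition gives. Such DNA was present in 1228 of the 1241 regions (99.0%, 95% Wilson interval 98.2% to 99.4%), in 93.8% of all AEBP2 regions and at 12310 of 22367 promoters. It was present in 447 of 457 AEBP2 promoter regions without H3K27me3 (97.8%), a difference of 1.14 percentage points (95% Newcombe interval -0.0975 to 2.98), an interval that includes 0. It was present in 477 of 521 distal AEBP2 regions with H3K27me3 (91.6%), 7.40 points fewer (5.18 to 10.1). All intervals over regions cover counting error only, not the spread between cultures. H3K27me3 promoter regions with no AEBP2 peak held a CpG island less often, at 682 of 985 (69.2%, 66.3% to 72.0%).

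The members differed from other AEBP2 promoters in how much DNA beyond the island was covered. CpG-island-like DNA made up 46.7% of the base pairs of the members and 92.4% of those of AEBP2 promoter regions without H3K27me3, and the median number of CGs per kb was 53.1 and 93.0. At least 2 separate islands lay in 363 members (29.3%), up to 19 in the HoxB region, and in 6 of the regions without the mark. Longer members held more island DNA, with a Spearman correlation of 0.76 over 1241 regions between region length and island base pairs. Island base pairs were counted within the region, so a positive correlation was largely set in advance. It was 0.94 at AEBP2 promoter regions without H3K27me3 and 0.44 at distal regions with it. In the 1 kb around the gene start, the same for every promoter, the classes were close, with a median GC content of 62.7% at the members' promoters and 60.8% at AEBP2 promoters without H3K27me3.

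Inside the H3K27me3 regions of the members, AEBP2 peaks covered most of the island DNA and a smaller part of the rest. These 1229 H3K27me3 regions had 14612359 bp, of which 19.7% was CpG-island-like, in 2157 islands. AEBP2 peaks covered 81.8% and 92.2% of the island base pairs in replicates 1 and 2, and 18.0% and 29.2% of the others. FS2-AEBP2, a list with no part in the choice of regions, covered 65.0% of island base pairs and 21.1% of the others. Since islands were the smaller part of these regions, they made up 52.6% and 43.6% of the base pairs under AEBP2 in replicates 1 and 2, and 43.0% of those under FS2-AEBP2. H3K27me3 covered 98.2% and 96.7% of island base pairs, and 93.6% and 80.5% of the others. The regions were joined from these same H3K27me3 peaks, so high coverage by the mark was set in advance. It cannot serve as a contrast with AEBP2. Each region was also kept for an AEBP2 region of both replicates near a gene start, where islands are common. High coverage of islands by endogenous AEBP2 was thus partly set by the choice too. FS2-AEBP2 reached 1689 of the 2157 islands (78.3%).

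**Figure D3:**
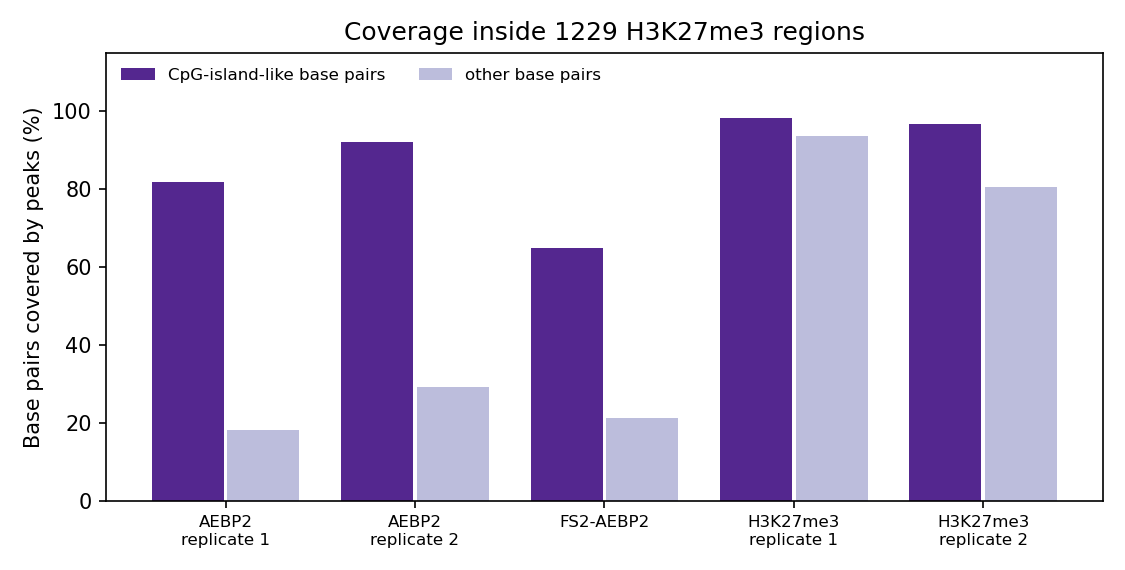
Share of base pairs covered by peaks (vertical axis, %) in the 1229 H3K27me3 regions that overlap a member, for CpG-island-like base pairs (dark bars) and all other base pairs (light bars), by peak list. The dark bar exceeds the light bar by a wide margin in all 3 AEBP2 lists. Because each region was kept for an endogenous AEBP2 region near a gene start, the dark bars of those lists are partly high by choice. The regions were joined from the H3K27me3 lists, so both bars of these are high by choice. They stand at 98.2% and 93.6% in replicate 1, and 96.7% and 80.5% in replicate 2.

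The promoters of the members seldom held several short words that are common at promoters of housekeeping genes. Words were searched on both strands in the 1 kb centred on each gene start, and none of those named here contains another. The palindromic word bound by NRF1, a regulator of mitochondrial and cell growth genes, was in 62 of 1347 member promoters (4.60%, 3.61% to 5.86%), in 8.73% of all promoters and in 15.1% of all promoters with a CpG island. It was in 281 of 551 AEBP2 promoters without H3K27me3 (51.0%, 46.8% to 55.2%). CCGGAAG, bound by ETS factors, was in 10.4% of member promoters, 19.1% of all promoters, 28.8% of those with an island, and 32.1% of AEBP2 promoters without H3K27me3. AAGATGGC, bound by YY1, was in 3.04% of member promoters against 7.82%, 9.53% and 15.6% in the same order. TCTCGCGA was in 0.817%, against 2.03%, 3.42% and 10.5%.

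Words that did not separate the classes were GGGCGG, the GC box bound by Sp factors, in 86.7% of member promoters and 88.2% of AEBP2 promoters without H3K27me3 (60.0% of all), and CCAATNNG, bound by NFY, in 28.2% and 27.8% (28.2% of all). GAGAGAGA was in 16.4% of member promoters, above its 10.5% at AEBP2 promoters without the mark and 13.2% of all promoters. CACACACA, the other simple repeat searched, was in 15.7%, 9.44% and 16.3% in the same order, so the higher share at the members than at AEBP2 promoters without the mark was seen with both repeats. H3K27me3 promoters with no AEBP2 peak were close to the members for NRF1 (3.50%) and ETS (120 of 1000). A match is a string of letters and no evidence of binding.

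Tagged AEBP2, which took no part in the choice of regions, was found at most of them. An FS2-AEBP2 peak overlapped 973 of 1241 members (78.4%, 76.0% to 80.6%), 59.1% of all AEBP2 regions and 6.53% of all promoters. At AEBP2 promoter regions without H3K27me3, 26 of 457 had such a peak (5.69%, 3.91% to 8.21%), a difference of 72.7 points (95% Newcombe interval 69.3 to 75.5). At distal AEBP2 regions with H3K27me3 the share was 376 of 521 (72.2%), 6.24 points lower than at the members (1.86 to 10.8). At distal AEBP2 regions without H3K27me3 it was 41 of 156 (26.3%), between these values. At H3K27me3 promoter regions with no AEBP2 peak it was 44 of 985 (4.47%, 3.34% to 5.94%). The FS2-AEBP2 list comes from 1 library, so the spread between repeats of that experiment is unknown.

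The share with FS2-AEBP2 rose with the length of the AEBP2 region. It was 31.9% for members under 1 kb (15 of 47), 50.5% at 1 to 2 kb (139 of 275), 81.4% at 2 to 4 kb (408 of 501), 97.2% at 4 to 8 kb and 100% at 8 kb or more (164 of 164). Promoters without H3K27me3 stayed lower at the same length, at 3.63% under 1 kb and 10.0% at 1 to 2 kb, and only 6 of them were longer, of which 2 had a peak. Distal regions with H3K27me3 matched the members at 1 to 2 kb (50.4%), 2 to 4 kb (80.3%) and 4 to 8 kb (95.4%), with intervals that overlap in every class. At equal length, the gap between promoter and distal regions was within these intervals.

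**Figure D4:**
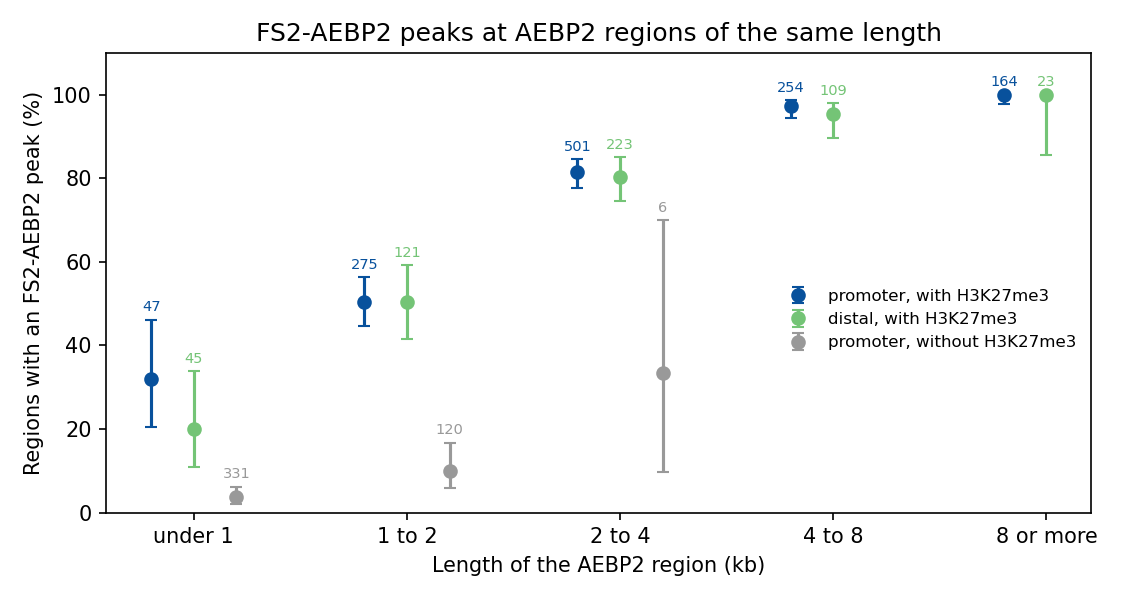
Share of AEBP2 regions with an FS2-AEBP2 peak (vertical axis, %) by the length of the AEBP2 region (horizontal axis, kb), with 95% Wilson intervals and the number of regions above each point. Promoter and distal regions with H3K27me3 rise together with length, the former from 31.9% to 100%, and promoter regions without the mark lie at 3.63% and 10.0% in the lowest length classes.

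The share with FS2-AEBP2 also rose with the AEBP2 score at the members, and at distal regions with the mark, and showed no such rise at promoters without it. By the lower AEBP2 percentile, the share of members with an FS2-AEBP2 peak was 56.9% below percentile 20, then 66.1%, 78.0% and 95.6% in the next classes of 20, and 99.2% at 80 and above (259 of 261). At AEBP2 promoter regions without H3K27me3 it was 5.13%, 8.79%, 11.5%, 3.28% and 2.36% (3 of 127) over the same classes. At distal regions with H3K27me3 it was 58.8%, 67.2%, 73.7%, 86.7% and 94.4%. From percentile 60 to 80 the intervals of the members (92.3% to 97.5%) and of the distal regions (78.1% to 92.2%) did not overlap. In every other score class they overlapped, and below percentile 40 the distal share was the higher. Score classes were not matched for length. The highest FS2-AEBP2 scores at members were 130 at the HoxD region, 126 at Uncx, which encodes a homeobox factor of the somites, 123 at Pax2, 123 at Pcdh10, which encodes a protocadherin, and 122 at Six3.

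The 268 members without an FS2-AEBP2 peak were shorter, with shorter and lower-scoring H3K27me3. Their median AEBP2 length was 1779 bp against 3512 bp for the 973 with a peak, and their H3K27me3 regions had medians of 6511 and 10168 bp. At similar AEBP2 length this gap was smaller, with medians of 6160 and 6595 bp at 1 to 2 kb, and 7185 and 8575 bp at 2 to 4 kb. Members without a peak also had lower median H3K27me3 percentiles, at 85.1 and 80.2 in replicates 1 and 2 against 93.7 and 89.6. They were richer in CGs per kb (63.8 and 50.2), but among members of 1 to 2 kb the medians were 70.0 without and 66.3 with a peak, with overlapping quartiles (56.1 to 85.3 and 56.7 to 79.3). After Dph1, those with the highest AEBP2 scores were Lrrfip1 (percentiles 82.6 and 85.1 in replicates 1 and 2), Eef1d (88.3 and 79.1), which encodes a translation elongation factor subunit, Cacna1h (77.2 and 88.4), which encodes a calcium channel, and Rhbdl3 (72.5 and 85.1). Eef1d had little H3K27me3, at percentiles 23.0 and 54.1, whereas Cacna1h had 90.2 and 92.2.

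Families of developmental regulators were the gene lists with the highest shares of members, although most member genes were in no list. Of the 1347 gene starts, 312 (23.2%) belonged to a gene of any of the 28 lists and 1035 (76.8%) to none. Of all 22367 protein-coding genes, 6.02% had a member within 1 kb of their start. The count was 38 of 39 for Hox genes (97.4%) and 71 of 84 for the other homeobox families (84.5%), which include Pax, Lhx, Nkx and Irx. It was 20 of 43 for Fox genes, 10 of 18 for Sox genes, 11 of 17 for T-box genes, 22 of 37 for developmental bHLH genes and 4 of 6 for Gata genes. H3K27me3 of both replicates lay at the promoters of all 39 Hox genes and of 82 of the 84 other homeobox genes, so that those without a member mostly lacked a shared AEBP2 region and not the mark. Gata4 had no member. These lists describe which genes the choice of regions took in, and no test was made on them.

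Signalling genes were members in differing shares. Of Wnt ligands, 15 of 19 had a member, compared with 7 of 19 Frizzled receptors and secreted Wnt antagonists, though 18 and 14 of them had H3K27me3. Wnt1 (chr15:98619284-98629191, 9908 bp) had AEBP2 at percentiles 87.1 and 97.9, H3K27me3 at 98.4 and 95.7, and FS2-AEBP2 at 98.1. Sfrp1, which encodes a secreted Wnt antagonist, had a region of 1068 bp, AEBP2 at percentiles 16.3 and 89.9, H3K27me3 at 23.0 and 59.8, and FS2-AEBP2 at 26.7. The AEBP2 replicates thus placed Sfrp1 far apart in rank. Of Fgf ligands 8 of 22 had a member, and of Bmp, Gdf and Nodal ligands and antagonists 11 of 32.

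The rank of the AEBP2 score also differed among lists. The median lower percentile over all member genes was 51.9. It was 90.2 for Hox genes, 89.7 for other homeobox genes, 85.5 for Fox genes and 71.1 for Wnt ligands, and the Hox value counts the long cluster regions once for each gene. It was 42.8 for potassium channels (24 of 94 with a member), 38.4 for GABA and glutamate receptor subunits (15 of 43) and 16.3 for Frizzled receptors and antagonists. All 38 Hox genes and all 71 other homeobox genes with a member had FS2-AEBP2 there, as did 19 of 24 such potassium channel genes. Over all genes with a member, 1062 of 1347 did, a share close to that of the potassium channels. Members at Hox and other homeobox genes had median lengths of 26540 and 9971 bp, and every member of 8 kb or more had FS2-AEBP2.

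Sox17, a regulator of endoderm (chr1:4481704-4488552, 6849 bp), had AEBP2 at percentiles 72.5 and 95.3, H3K27me3 at 81.6 and 95.7, and FS2-AEBP2 at 89.4. Foxa2 (chr2:147861318-147875710, 14393 bp) had AEBP2 at 96.6 and 96.8, H3K27me3 at 98.4 and 99.5, and FS2-AEBP2 at 97.1. Pax6, a regulator of eye and brain (chr2:105505867-105517348, 11482 bp), had AEBP2 at 85.0 and 76.7, H3K27me3 at 95.5 and 95.7, and FS2-AEBP2 at 93.9. Neurog2, a proneural factor, had AEBP2 at 77.2 and 97.1, H3K27me3 at 99.8 and 99.0, and FS2-AEBP2 at 90.1. Nkx2-2, a regulator of ventral neural tube (19883 bp), had AEBP2 at 95.3 and 94.5, H3K27me3 at 99.9 and 92.2, and FS2-AEBP2 at 94.7. Replicate 2 of AEBP2 ranked Sox17 and Neurog2 higher than replicate 1 did, while Foxa2 and Nkx2-2 ranked alike in both.

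**Figure D5:**
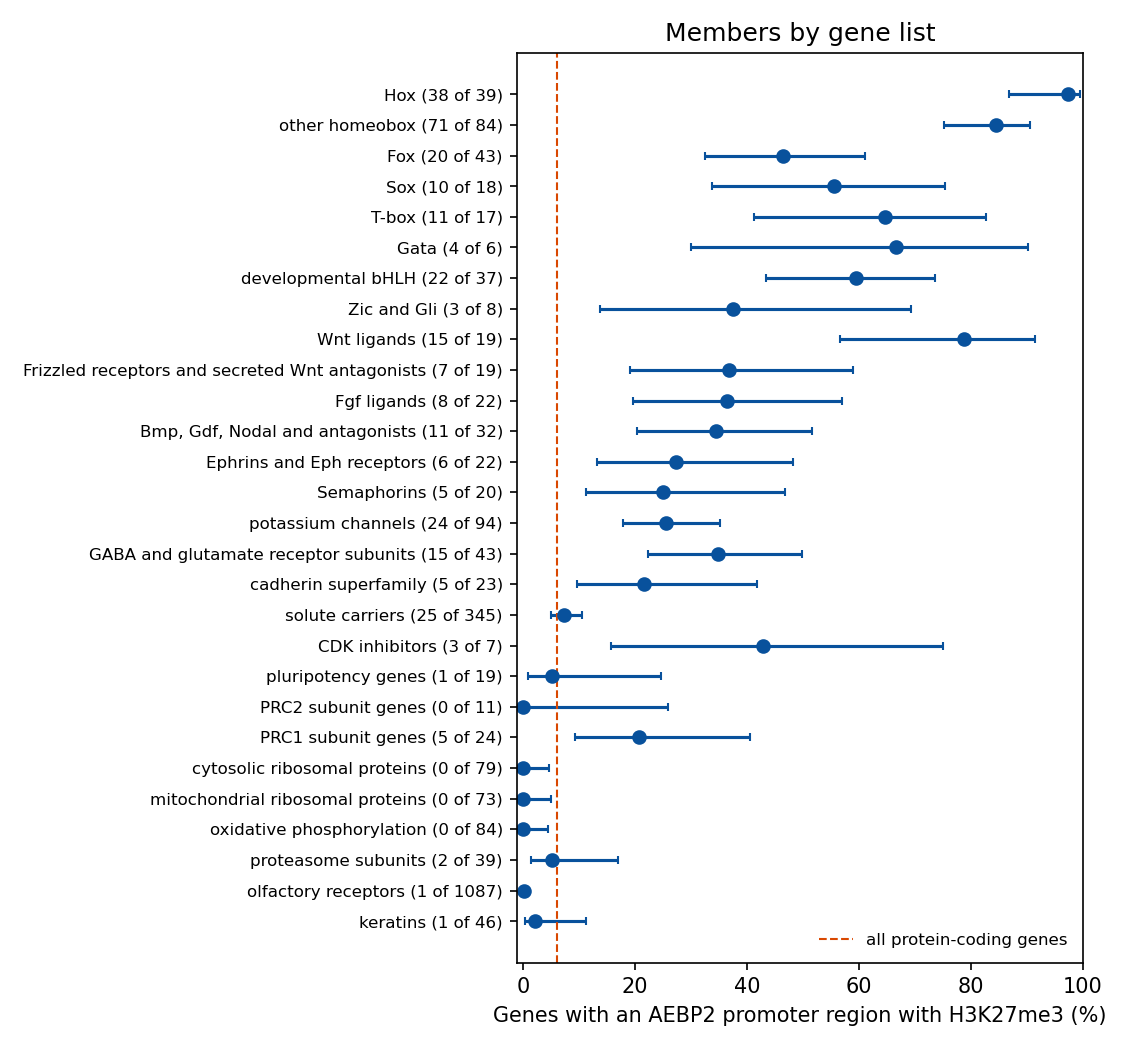
Share of genes of each list (horizontal axis, %) with an AEBP2 promoter region with H3K27me3, with 95% Wilson intervals and counts in the labels; the dashed line is the 6.02% of all protein-coding genes. Hox and other homeobox genes lie at 97.4% and 84.5%, and ribosomal and oxidative phosphorylation genes at 0. The promoters of the latter also lacked H3K27me3 of both replicates.

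Genes of ribosomes and of oxidative phosphorylation had no member. No cytosolic ribosomal protein gene (0 of 79, which allows a share of up to 4.64% by the Wilson interval), no mitochondrial ribosomal protein gene (0 of 73, up to 5.00%) and no oxidative phosphorylation gene (0 of 84, up to 4.37%) had a member. H3K27me3 of both replicates, which a member must overlap, lay at 0 of the promoters of each of these lists. The absence of members thus reflects how the regions were chosen. AEBP2 regions without H3K27me3 lay at 9, 5 and 12 of these genes, and at 551 of all 22367 protein-coding genes. Proteasome genes had members at 2 of 39 (5.13%), near the 6.02% of all genes. Both of them, Psmb8 and Psmb9, lay in the same 23024 bp of H3K27me3. Their lower AEBP2 percentiles were 2.75 and 2.51, near the bottom of the lists, and no other proteasome gene had a member. Of 19 pluripotency genes, Tbx3 had a member (5.26%, 0.935% to 24.6%), and of 11 genes of PRC2 subunits none did (up to 25.9%), shares that cannot be told from that of all genes. An AEBP2 region without the mark lay at 2 of the PRC2 genes. Of 24 genes of PRC1 subunits, 5 had a member (20.8%, 9.24% to 40.5%), with an interval that overlaps that of the PRC2 genes. Cbx8, which encodes a PRC1 subunit that reads H3K27me3, had an AEBP2 region of 28449 bp, with AEBP2 at percentiles 94.9 and 92.1, H3K27me3 at 99.7 and 99.7, and FS2-AEBP2 at 95.9.

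Among the libraries left out in turn, AEBP2 replicate 1, the shorter AEBP2 list, changed the size of the set most: without it, 2169 regions met the same criteria. The share with FS2-AEBP2 was then 54.4%, and the gap between promoter and distal regions was 9.75 points in place of 6.24.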

How the data were processed

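ChIP-seq peak lists from wild-type mESCs were used. The authors aligned reads and called peaks. The labels' processing notes name Bowtie, SAMtools, Picard, MACS2 2.0.10.2 and build mm9. Each deposited list gives peak start, end, sub-peaks and a whole-number score, whose scale is not given in the sources used here, so the deposited score served only for ranks within a list. Reads, inputs, SUZ12 and mutant libraries were not analysed here. Positions are 1-based.

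Overlapping peaks of both replicates were joined and compared by at least 1 bp of overlap with the NCBIM37 sequence (mm9) and GENCODE vM1 gene starts. Peaks off the assembled chromosomes were left out (2 of AEBP2 replicate 1, 13 of H3K27me3 replicate 2). A promoter is a protein-coding gene start with 1 kb on either side. Shares carry 95% Wilson intervals and differences 95% Newcombe intervals, and no p-value was computed, since regions are not replicates. Python 3.11.15, numpy 2.4.6 and pandas 2.3.3 were used, after tests on simulated lists. Named genes are the 10 members with the highest AEBP2 score in both lists, the 5 longest, the 5 with the highest FS2-AEBP2 score, the 5 with the highest AEBP2 score and no FS2-AEBP2, the 5 with the largest and the 5 with the smallest share of their H3K27me3 region, up to 2 genes per list, the members nearest the limits and 10 given genes; only some are printed. The members and gene lists were chosen with earlier results of these data known. The 14 alternatives tried are described in the closing section. Some items that these rules select are not reported here.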

Additional observations from a re-analysis of the deposited data

How the results depend on the processing

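Shares and differences below are as in the report. With only peaks of a score at or above their list's median, 688 regions remained, with FS2-AEBP2 at 92.6%, a difference from promoters without H3K27me3 of 87.8 points, CpG islands at 99.4% and a median coverage of the H3K27me3 region of 37.3%. With peaks of either replicate the values were 2342 regions, 51.5%, 47.9 points, 96.3% and 26.1%, and the gap to distal regions was 11.1 points. With only FS2-AEBP2 peaks at or above their median score, the FS2-AEBP2 share was 57.4% and the difference 53.4 points, and with FS2-AEBP2 covering at least 50% of the AEBP2 region they were 54.3% and 52.8 points. With CpG islands from 200 bp windows the share was 99.9%. Leaving out each AEBP2 and H3K27me3 library in turn gave 1240 to 2169 regions, an FS2-AEBP2 share of 54.4% to 78.5%, a difference from promoters without the mark of 50.9 to 71.9 points, a gap to distal regions of 5.21 to 9.75 points, CpG islands in 96.7% to 99.0% and a median coverage of 22.1% to 41.0%. The 2169 regions, 54.4%, 50.9 and 9.75 points came without AEBP2 replicate 1. Promoter width, all transcript starts, joining peaks within 1 kb and a 50% H3K27me3 overlap moved no value outside its interval, and no difference changed sign under any alternative. The cause of these shifts was not tested. No paired analysis was possible because these results are counts of peaks with no test between samples. Read depth was taken as unknown, so no limit can be set on binding where no peak was called.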

Other observations

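Starts of lincRNA genes lay within the promoter distance of 108 of the 1241 members (8.70%, 95% Wilson interval 7.26% to 10.4%), compared with 22 of 457 AEBP2 promoter regions without H3K27me3 (4.81%, 3.20% to 7.18%) and 26 of 521 distal regions with the mark (4.99%, 3.43% to 7.21%). These regions had median lengths of 3001, 739 and 2626 bp, and the part of length in these counts was not tested. Protein-coding starts on both strands lay at 70 members (5.64%). Of the distal regions with H3K27me3, 128 of 521 (24.6%) lay at the start of another protein-coding transcript than the annotated gene start.

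The members were spread over the chromosomes, with 8.24% of protein-coding gene starts on chromosome 12, the highest share, and 26 of 932 (2.79%) on chromosome X, the lowest after chromosome Y, where 0 of 17 had a member.

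Nearest the limits of the choice were Cachd1, Adora2b and Dclk3, whose overlap with H3K27me3 was 23, 113 and 197 bp. The nearest gene start was 982 bp away at Dlx4, 965 bp at Tbx3 and 963 bp at Sdk2, just inside the limit, and 1039 bp at Pmp22 and 1070 bp at Rbpjl, just outside it. The AEBP2 regions at B230208H17Rik, 6330403L08Rik and Nrarp missed the nearest H3K27me3 region by 50, 357 and 473 bp.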
